A study of Mus musculus with 15 samples.

Results

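Perigonadal adipose tissue, the white fat depot beside the gonads, was compared between obese and lean mice by sequencing of poly(A) RNA. All 5 libraries labelled obese and all 5 labelled lean were used, 10 of the 15 samples of the series, and none was chosen by its values. Both groups were C57BL/6 mice aged 14 weeks, and the labels give neither a genotype nor a sex. The lean group was kept on chow, and the obese group was given a 60% high fat diet from 8 weeks of age. The first feeding period lasted 5 weeks, and in the 1 week that followed other mice of the series went back to chow before all animals were killed. Each library came from whole fat pads, so fewer cells of a type and less RNA per cell cannot be told apart. The design text describes the samples as independent, and the p-values below measure the spread between these samples.

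White fat cells store triglyceride in 1 large droplet and release fatty acids when catecholamines act on their receptors, while insulin promotes glucose uptake and storage. When food is in excess the cells enlarge and new ones form from progenitors in the surrounding connective tissue. The tissue around them is rebuilt with new collagen and vessels, and macrophages gather, many of them around dying fat cells. Fat cells also secrete hormones such as leptin, and a circadian clock within them sets the daily course of many transcripts.

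The libraries held 13924770 to 22233821 counts in the lean group and 18606425 to 33807887 in the obese group, and 15208 genes had enough counts to be tested. Fat cell transcripts were present in all 10: Adipoq, which encodes the hormone adiponectin, stood at 1559 to 2094 CPM in lean and 1810.2 to 2782 CPM in obese libraries. CPM is a gene's count per 1000000 counts after TMM scaling of the library sizes. Several libraries also held transcripts of the epididymis, the duct that adjoins this depot in male mice. The 33 epididymal genes listed summed to 4854, 28.3, 38.8, 1934 and 43.3 CPM in lean replicates 1 to 5 and to 47.6, 9838, 874, 7273 and 7964 CPM in obese replicates 1 to 5. The counts of genes that passed the test below, in all and by list, were therefore repeated without lean replicate 1 and obese replicates 2, 4 and 5. These are called here the 4 epididymis-rich libraries, and their removal left 4 lean and 2 obese libraries. Counts of separated groups, neighbouring genes, promoter motifs and kinds of gene were not repeated in this way.

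Obese and lean fat differed in 1477 of the 15208 genes tested, or 9.71%, at an adjusted p of 0.05 in edgeR's quasi-likelihood test. Of these, 891 genes (5.86%) rose and 586 (3.85%) fell in obese fat, and a gene is said below to have risen or fallen only if it passed this test. The change was over 2-fold for 365 of the genes that rose and 137 of those that fell. For 1132 of the 1477 genes every library of one group lay above every library of the other, and among all genes tested 1574 (10.3%) were separated in this way, 919 (6.04%) with obese above lean and 655 (4.31%) below. Replicates were less alike in lean fat, where the median SD of log2 CPM was 0.31 against 0.25 in obese fat. With the epididymal level as a covariate 1159 genes passed, 1003 of them among the 1477, and all 1477 kept their sign. Leaving out 1 library at a time gave 849, 887 and 929 genes without obese replicates 2, 3 and 4 and 903 without lean replicate 5, and 693 of the 1477 passed in all 10 such fits. Without the 4 epididymis-rich libraries 125 genes passed, 124 of them among the 1477, and 1476 kept their sign. The median log2 fold change of all genes was -0.02, the value beside which the medians of gene lists below can be read. Figures after ± are standard errors for log2 fold changes and SDs (n = 5) for CPM.

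**Figure D1:**
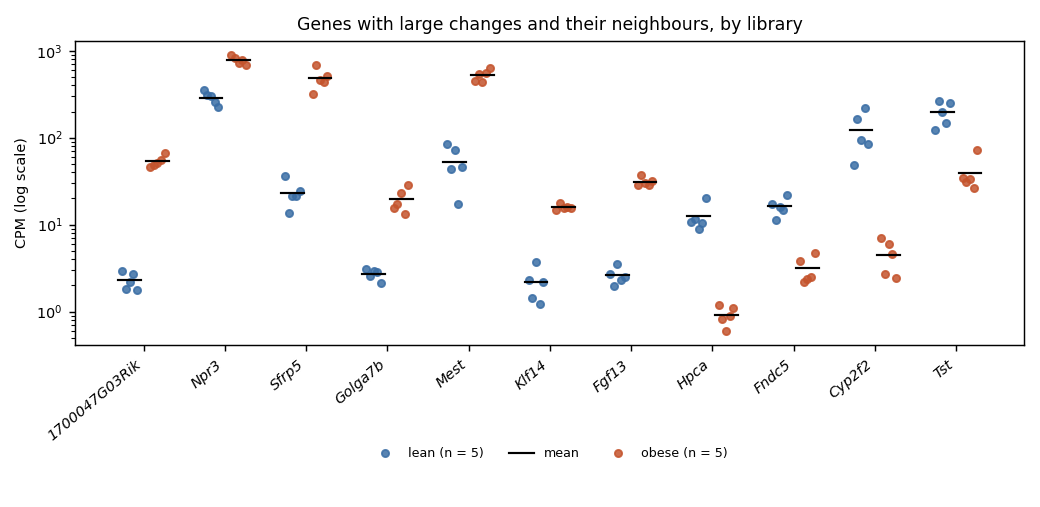
CPM (log scale) of 11 genes with large changes or their neighbours in each lean (blue, n = 5) and obese (orange, n = 5) library, with a line at each group mean. Points of the 2 groups do not overlap for any of the 11 genes, and the first 7 genes are higher and the last 4 lower in obese fat.

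The smallest p of all genes belonged to 1700047G03Rik, a long noncoding RNA of unknown role on chromosome 15 (11967062 to 11970083, mm10). It stood at 2.94, 1.84, 2.21, 2.68 and 1.77 CPM in lean and 46.4, 48.8, 50.7, 55.2 and 66.5 CPM in obese libraries, in replicate order as in all such lists below. The lowest obese library was far above the highest lean one, a log2 fold change of 4.53 ± 0.27 (adjusted p = 7.14e-07). The tested gene next to it on one side, at a gap of 59224 bases, is Npr3, the clearance receptor that removes natriuretic peptides. Npr3 stood at 349.5, 309.8, 301, 255 and 228 CPM in lean and 904, 819.5, 724, 785 and 685 CPM in obese libraries, and it also rose without overlap (1.44 ± 0.21).

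Other pairs of neighbours lay among the 12 highest and 12 lowest changes. Sfrp5, a secreted Wnt inhibitor, is followed on chromosome 19 after 45325 bases by Golga7b, which encodes an accessory protein of palmitoyl transferases. Golga7b stood at 3.12, 2.55, 2.89, 2.88 and 2.13 CPM in lean and 15.5, 17.2, 23.1, 13.4 and 28.6 CPM in obese libraries, a rise of 2.84 ± 0.27 on the log2 scale with no overlap. On chromosome 6, 207554 bases separate Mest, an imprinted gene that marks fat pad expansion, from Klf14, an imprinted transcription factor gene. Klf14 stood at 2.32, 1.42, 3.71, 1.21 and 2.2 CPM in lean and 14.7, 17.5, 15.5, 15.8 and 15.5 CPM in obese libraries. Its rise of 2.85 ± 0.34 was nearly the same in all 5 obese libraries. The 1 tested gene between them, Tsga13, did not pass (log2 1.65 ± 1.14, adjusted p = 0.41).

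On chromosome 4 a pair fell together: Hpca, a calcium sensor best known from neurons, and Fndc5, the precursor of irisin, with 10950 bases between them. Hpca stood at 10.8, 11.5, 8.86, 10.5 and 20.4 CPM in lean and 1.18, 0.812, 0.597, 0.89 and 1.09 CPM in obese libraries, and Fndc5 at 17.2, 11.4, 16.1, 14.8 and 21.9 CPM in lean and 3.82, 2.18, 2.39, 2.51 and 4.76 CPM in obese libraries. Neither gene's groups overlapped, and Fndc5 fell by 2.37 ± 0.45 on the log2 scale. Cldn22, a claudin of tight junctions, fell by 2.41 ± 0.58. Cldn24 lies 1676 bases away and is close in sequence, so reads of the pair may be divided between them. Over the whole genome, genes that rose had 1640 neighbouring places held by a tested, non-overlapping gene, and in 170 of them (10.4%) the neighbour had risen too, against 6.06% of all such places. For genes that fell the figures were 84 of 1014 (8.28%) against 3.75%.

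Further large changes concerned single genes. Fgf13, an intracellular member of the fibroblast growth factor family, stood at 2.72, 1.99, 3.57, 2.28 and 2.48 CPM in lean and 28.4, 37.2, 29.9, 28.7 and 31.9 CPM in obese libraries, a rise of 3.57 ± 0.40. Duoxa1, a maturation factor of the dual oxidases, rose from 1.14 ± 0.69 to 10.2 ± 1.1 CPM and Mmp12, the macrophage metalloelastase, from 2.74 ± 1.2 to 19.1 ± 9.6 CPM. Serpina3j, of a cluster of closely related serpin genes whose reads can be hard to assign, fell from 10.4 ± 7.6 to 0.165 ± 0.16 CPM. Tst, a mitochondrial enzyme that transfers sulfur to cyanide, stood at 122, 266, 198, 149 and 249 CPM in lean and 34.01, 31.3, 33.5, 26.3 and 71.4 CPM in obese libraries. The highest obese library was below the lowest lean one, and the fall was 2.32 ± 0.41 on the log2 scale. Acsm3, a medium-chain acyl-CoA synthetase, Fn3k, a kinase that repairs glycated proteins, and Itih4, a secreted inhibitor family member, fell by log2 values of 2.08, 2.04 and 1.96, each without overlap.

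A few of the extreme values rested on 1 or 2 libraries. Lcn5, Epp13 and Spink2 passed as the highest or among the highest, but reached 1162, 489.7 and 109.6 CPM in obese replicate 4 alone. Elsewhere Lcn5 and Epp13 were at 4.3 CPM or less and Spink2 at 4.93 CPM or less. Lcn5 is a lipocalin of the epididymis. Without obese replicate 4 none of these 3 passed, with adjusted p of 0.41, 0.949 and 0.149. With a lean library left out Lcn5 also missed the threshold in 2 fits (replicates 2 and 5), Epp13 in 5 (every replicate) and Spink2 in 4 (replicates 2 to 5), with adjusted p of 0.0509 to 0.0993. None passed with the epididymal level as a covariate (0.299, 0.414 and 0.208). Cntd1, a meiotic cyclin-like gene, stood at 1.2, 1.14, 2.53, 56.1 and 51.1 CPM in lean and 1.08, 0.928, 2.82, 1.36 and 0.988 CPM in obese libraries. Its fall was the high level of lean replicates 4 and 5, and it missed the threshold without either of them (adjusted p = 0.071 and 0.0746) and without obese replicate 1, 2, 4 or 5 (0.0591 to 0.0746).

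**Figure D2:**
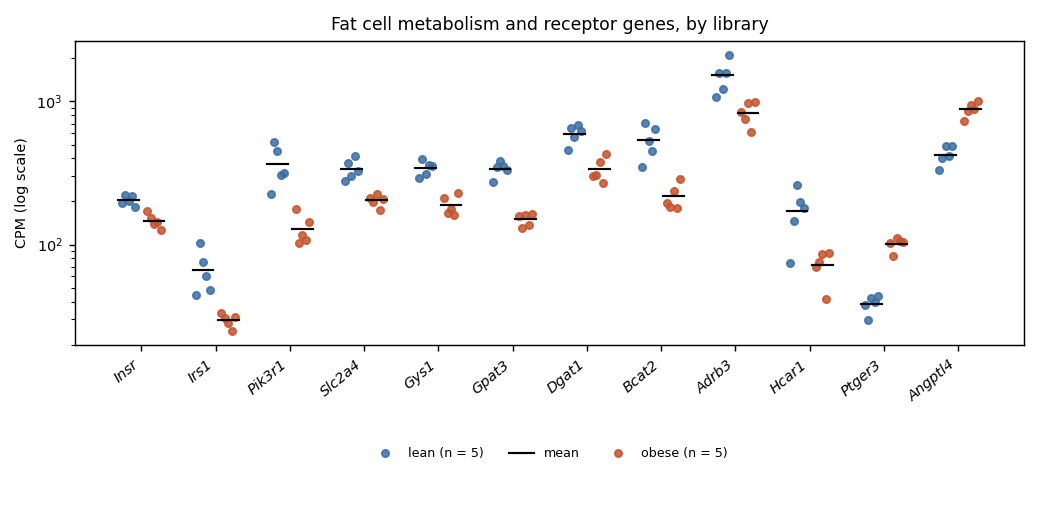
CPM (log scale) of 12 genes of fat cell metabolism and receptors in each lean (blue, n = 5) and obese (orange, n = 5) library, with a line at each group mean. Of these 12, 10 are lower in obese fat, and Ptger3 and Angptl4 are higher. The groups overlap for Hcar1.

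Of 21 fat cell identity genes 6 fell and none rose, and their median log2 value was -0.24. Pparg, the nuclear receptor that directs fat cell formation, stood at 224, 308, 208, 226 and 245 CPM in lean and 167, 142, 127, 137 and 194 CPM in obese libraries. Every obese library was below every lean one, with a log2 value of -0.66 ± 0.14 (adjusted p = 0.00915). Adrb3, the main catecholamine receptor of mouse fat cells, fell from 1518 ± 403 to 835 ± 156 CPM, also without overlap. Several defining enzymes of the fat cell did not pass: Lpl, lipoprotein lipase, had a log2 value of -0.07 ± 0.13, Lipe, hormone-sensitive lipase, -0.32 ± 0.16 and Cidec, a droplet fusion protein, -0.24 ± 0.17. None of the 21 passed without the 4 epididymis-rich libraries, where the median was -0.38.

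Among 24 secreted factors and genes of fat expansion 9 rose and 2 fell, with a median of 0.50. Trp53inp2, which takes part in autophagy and nuclear receptor signalling, stood at 448, 396, 276, 223 and 273 CPM in lean and 1048, 905, 857, 987 and 1175 CPM in obese libraries. It rose without overlap by 1.62 ± 0.19. Apln, which encodes the peptide hormone apelin, stood at 22.2, 22.99, 16.7, 31.6 and 25.5 CPM in lean and 63.1, 72.8, 75.5, 47.2 and 40.1 CPM in obese libraries, and its 2 groups were likewise apart (1.33 ± 0.26). Igf1, insulin-like growth factor 1, fell from 646 ± 184 to 384 ± 67.4 CPM (adjusted p = 0.0167, or 0.0584 with the epididymal covariate), and its groups overlapped. Crispld2, a secreted protein, did not pass, with a log2 value of -0.08 ± 0.11. In the fit without the 4 epididymis-rich libraries 5 of the 24 rose and none fell.

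The insulin pathway held more falls than rises, with 8 of 27 genes lower and 1 higher and a median of -0.18. The receptor gene Insr stood at 194, 220.5, 203, 218 and 182 CPM in lean and 172, 153, 139, 143 and 127 CPM in obese libraries. Its groups did not overlap, and the fall was 0.47 ± 0.10 on the log2 scale (adjusted p = 0.0118). Downstream of the receptor, Irs1, the docking protein that it phosphorylates, stood at 44.6, 102, 75.9, 60.1 and 48.4 CPM in lean and 33.5, 30.9, 28.2, 24.9 and 30.97 CPM in obese libraries, again without overlap (-1.16 ± 0.21). Pik3r1, the regulatory subunit of phosphoinositide 3-kinase, stood at 224, 524, 452, 308 and 315 CPM in lean and 177, 103, 116, 107 and 144 CPM in obese libraries, the greatest fall of the list (-1.50 ± 0.22). At the end of the pathway Gys1, glycogen synthase, fell from 343 ± 41.1 to 188 ± 30.2 CPM and Hk2, a hexokinase, from 172 ± 22.9 to 121 ± 8 CPM. Pdk4, a kinase that holds pyruvate back from the citric acid cycle, was the gene that rose, at 22.8 ± 7.2 to 48.8 ± 8.9 CPM. It missed the threshold without obese replicate 1, 2, 3 or 4 or lean replicate 1, 2, 4 or 5, with adjusted p of 0.0503 to 0.0844. Of the 27 genes, 1 passed without the 4 epididymis-rich libraries, and the median was -0.34.

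Genes of triglyceride storage changed in both directions, with 5 of 22 lower and 2 higher and a median of -0.26. Gpat4, which adds the first fatty acid to glycerol phosphate, stood at 337, 442, 356, 421 and 384 CPM in lean and 206, 197, 223, 219 and 241 CPM in obese libraries, with no overlap (-0.84 ± 0.12). Dgat1, which adds the last fatty acid, fell from 596 ± 91.2 to 337 ± 64.6 CPM, and its groups were apart as well. Plin2, which coats lipid droplets in many cell types, stood at 193, 257, 251, 279 and 245 CPM in lean and 335, 369.6, 477, 396 and 451 CPM in obese libraries, higher in every obese library (0.73 ± 0.16). Of 19 genes of fatty acid synthesis 5 fell and 2 rose. The desaturases moved against the carboxylases there: Scd1 stood at 10473, 13777, 11549.8, 10833 and 8106 CPM in lean and 19550.5, 17011, 16612, 16216 and 12738 CPM in obese libraries and rose by 0.59 ± 0.15 with overlapping groups, and Scd2 rose from 229 ± 82.9 to 509.7 ± 82.1 CPM. Between 4 and 8 members passed when 1 library was left out, with 4 without obese replicate 1, 2, 3 or 4 or lean replicate 4. Scd1 missed the threshold without obese replicate 1, 2, 3 or 4 or lean replicate 4 or 5, with adjusted p of 0.0511 to 0.0691.

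Of 21 genes of lipolysis and its receptors 4 fell and 2 rose, and the receptors that restrain lipolysis did not move one way. Hcar1, the lactate receptor, stood at 74.5, 145, 262, 199 and 179.8 CPM in lean and 69.2, 75.1, 86.2, 41.6 and 87.3 CPM in obese libraries, lower on average in obese fat with overlap by lean replicate 1 (-1.26 ± 0.28). Ptger3, a prostaglandin E2 receptor coupled to inhibitory G proteins, stood at 37.9, 29.5, 42.03, 39.9 and 43.8 CPM in lean and 102, 83.3, 112, 106 and 105 CPM in obese libraries. Each obese library had more Ptger3 than any lean one, and the rise was 1.40 ± 0.14 (adjusted p = 7.90e-05). Ces1f, a carboxylesterase, fell from 159 ± 43.6 to 75.8 ± 16.9 CPM. The storage list had 3 calls, the lipolysis list 3 and the synthesis list 2 without the 4 epididymis-rich libraries.

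Of 24 genes for the breakdown of branched-chain amino acids 6 fell, 1 rose and 17 did not pass, with a median of -0.41. Bcat2, the transaminase of the first step, stood at 347, 703, 532, 454 and 639 CPM in lean and 196, 183, 238, 180.3 and 288 CPM in obese libraries. All obese values were below all lean values, a log2 value of -1.30 ± 0.23. Slc25a44, the carrier that brings these amino acids into mitochondria, fell from 111 ± 14.4 to 74.3 ± 3.5 CPM, and Ivd, the dehydrogenase of the leucine branch, from 289.6 ± 56.1 to 179 ± 20.2 CPM. The count was 3, all lower, with the epididymal level as a covariate and 4 without obese replicate 4. It was 0 without the 4 epididymis-rich libraries, with a median of -0.39.

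The share of other mitochondrial genes called differed between lists. It was 5.26% for oxidative phosphorylation, 20.8% for the citric acid cycle and 7.41% for fatty acid oxidation, against 9.71% of all genes tested. Of 76 subunits of oxidative phosphorylation 3 rose and 1 fell, with a median of -0.19. Ndufs4, a subunit of complex I, rose from 63.7 ± 17.9 to 113 ± 17.9 CPM and was the 1 member called in every fit without 1 library. Of 24 genes of the citric acid cycle and its control 4 fell and 1 rose. Pdk2, a kinase of pyruvate dehydrogenase, stood at 128, 156, 142, 151 and 163 CPM in lean and 88.98, 91.3, 87.3, 101 and 103 CPM in obese libraries, and it fell without overlap (-0.65 ± 0.10). Of 27 genes of fatty acid oxidation, Cpt1a, which starts the import of fatty acids into mitochondria, rose from 66.4 ± 15.1 to 116 ± 11.2 CPM, and Crat, carnitine acetyltransferase, fell from 445 ± 65.3 to 303 ± 25.4 CPM. The first 2 counts moved with single libraries: 1 subunit passed without obese replicate 3 or 4 or lean replicate 2 and 2 without lean replicate 5. In the citric acid cycle list 1 passed without obese replicate 2, 2 without obese replicate 3 or 4 or lean replicate 2 or 4, and 3 without lean replicate 5. With the epididymal covariate 1 subunit and 3 genes of the citric acid cycle list passed, and without the 4 epididymis-rich libraries 0 and 1. Of the 27 oxidation genes 4 passed without obese replicate 5 and none without the 4 libraries. Ppargc1b, a coactivator of mitochondrial genes, fell from 9.19 ± 2.9 to 2.76 ± 0.82 CPM, while Ucp1, the uncoupling protein of brown fat, did not pass the filter on low counts.

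Sterol and xenobiotic enzymes held single large changes. Hmgcs1, an early enzyme of cholesterol synthesis, stood at 128, 116, 141, 82.6 and 85.04 CPM in lean and 233, 251, 229, 234 and 313 CPM in obese libraries, and it rose without overlap by 1.19 ± 0.20. Fdft1, squalene synthase, moved the other way within the same list of 22 genes, from 169 ± 15.5 to 115 ± 15.1 CPM. In all, 3 of the 22 rose and 1 fell, with a median of 0.30. The median of the list was 0.14 and no gene passed without the 4 epididymis-rich libraries, and 1 rose and 1 fell with the covariate. Cyp2e1, a cytochrome P450 that oxidizes ethanol and fatty acids, stood at 3929, 6581, 5539, 5415 and 5822 CPM in lean and 2019.8, 1486, 1979, 1645 and 2995 CPM in obese libraries. It fell by 1.43 ± 0.26 on the log2 scale with no overlap between groups.

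**Figure D3:**
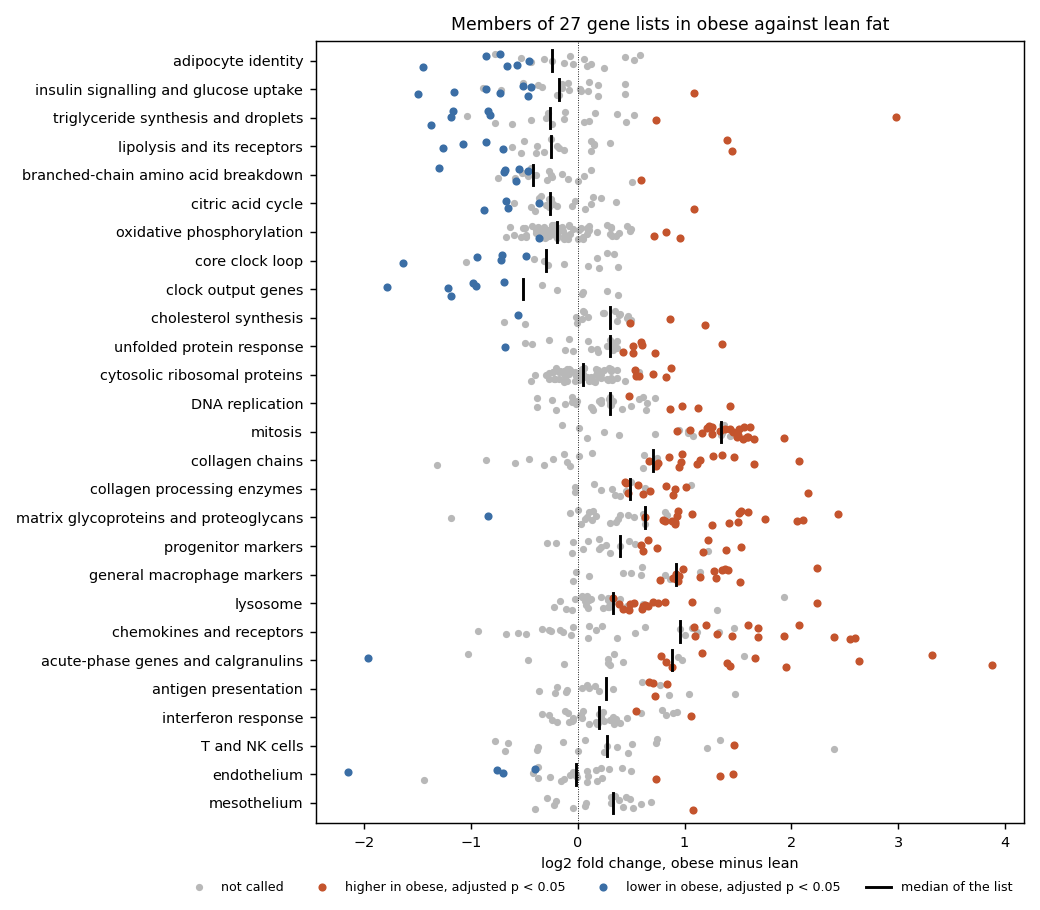
Log2 fold changes, obese minus lean, of every tested member of 27 gene lists, 1 point a gene, with orange for genes that rose, blue for genes that fell, grey for genes not called and a black bar at the list median. Of these 27 of the 54 lists, mitosis has the highest median (1.34) and clock output genes the lowest (-0.51), while among lists not drawn the epididymal genes stand at 2.55 and the thermogenic genes at -0.57.

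Of 28 collagen chains 14 rose and none fell, with a median of 0.70. Col5a1, a chain of the type V collagen that starts collagen fibrils, stood at 179, 223, 171, 147 and 147 CPM in lean and 419, 338, 335, 317 and 289.6 CPM in obese libraries. It rose by 0.97 ± 0.16, and lean and obese values did not overlap. Col18a1, a basement membrane collagen and the source of endostatin, rose from 177 ± 25.02 to 320.4 ± 28.3 CPM, and Col6a3, the third chain of type VI collagen, from 151 ± 33.1 to 331 ± 69.1 CPM. Col1a1, the main chain of fibrillar type I collagen, did not pass (log2 0.61 ± 0.20, adjusted p = 0.0685). The summed level of the 28 chains ran from 4107 to 5842 CPM in lean and from 7625 to 11140.1 CPM in obese libraries, without overlap. With the covariate 17 chains rose, and 4 rose without the 4 epididymis-rich libraries.

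Of 22 enzymes and chaperones that process collagen 11 rose and none fell. Serpinh1, the collagen chaperone of the endoplasmic reticulum, stood at 363, 452, 431, 362 and 419 CPM in lean and 745, 696, 904, 728 and 746 CPM in obese libraries, a rise of 0.91 ± 0.11 (adjusted p = 0.000198) with separate groups. Adamts2, which cleaves the end of procollagen, rose from 91.1 ± 13.9 to 169 ± 17.97 CPM, and Loxl1, a cross-linking lysyl oxidase, from 114 ± 22.03 to 202 ± 26.1 CPM. Pcolce2, which speeds the cleavage of procollagen, stood at 8.92, 8.94, 15.7, 3.28 and 2.48 CPM in lean and 35.4, 36.3, 34.8, 37.4 and 33.5 CPM in obese libraries, the greatest rise of the list (2.16 ± 0.40). Without obese replicate 3, obese replicate 5 or lean replicate 4 the count was 7, and without the 4 epididymis-rich libraries it was 2.

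Among 41 matrix glycoproteins and proteoglycans 19 rose and 1 fell, with a median of 0.63. Srpx2, a secreted sushi-domain protein, stood at 19.5, 19.5, 18.4, 23.7 and 18.4 CPM in lean and 62.1, 76.05, 67.8, 65.1 and 63.6 CPM in obese libraries, a rise of 1.75 ± 0.16 without overlap. Mfap5, a microfibril protein, stood at 70.9, 64.99, 82.9, 48.4 and 35.9 CPM in lean and 193, 179, 211, 179 and 112 CPM in obese libraries, and Fbn1, the fibrillin of the same microfibrils, at 84.7, 91.2, 109.7, 34.9 and 29.3 CPM in lean and 467, 316, 295, 276 and 156 CPM in obese libraries. Both were higher in every obese library (1.53 ± 0.22 and 2.11 ± 0.41). The number called was 9, 8, 9 and 11 without obese replicates 1, 2, 3 and 4, and 12, 10 and 10 without lean replicates 2, 4 and 5. Without the 4 epididymis-rich libraries it was 3. Among 31 proteases and their inhibitors 7 rose and 1 fell, 5 in all without obese replicate 2 and 3 without the 4 epididymis-rich libraries. Adamts5, an aggrecan-cleaving protease, rose from 321 ± 51.7 to 667 ± 138 CPM and Ctsk, a collagen-cleaving cathepsin, from 13.6 ± 3.3 to 28.7 ± 1.4 CPM.

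The shares of Wnt and BMP pathway genes called lay near that of all genes tested. They were 13.5% for the Wnt list and 11.4% for the TGF-beta, activin and BMP list, against 9.71%. Of 37 genes of the Wnt pathway 3 rose and 2 fell, with a median of -0.08. Among ligands, Wnt11 stood at 5.49, 3.62, 5.06, 2.75 and 4.4 CPM in lean and 13.4, 14.8, 13.6, 10.8 and 12.7 CPM in obese libraries, a rise without overlap (1.61 ± 0.23). Among secreted inhibitors, Sfrp4 rose from 2.5 ± 1.6 to 12.8 ± 3.6 CPM. Axin2, a common target of the pathway and part of the complex that destroys beta-catenin, stood at 32.7, 34.9, 16.9, 17.2 and 29.5 CPM in lean and 11.1, 12.3, 9.66, 10.3 and 13.02 CPM in obese libraries. Its values were lower in every obese library (-1.22 ± 0.26), as were those of Tcf7l2, a transcription factor of the pathway (-1.04 ± 0.18).

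Of 35 genes of TGF-beta, activin and BMP signalling 3 rose and 1 fell. The follistatin-like genes went up: Fstl1 from 124 ± 32.4 to 347 ± 63.9 CPM and Fstl3, which binds activin and myostatin, from 7.92 ± 1.7 to 17.5 ± 3.4 CPM. Of 32 genes of the IGF and FGF families 2 rose and 4 fell, among them Fgf10, a growth factor of fat progenitors, at 92.2 ± 10.6 to 50.3 ± 9.1 CPM (-0.87 ± 0.14). Of the 32, 3 passed without obese replicate 2, obese replicate 3 or lean replicate 4. Without the 4 epididymis-rich libraries 3 Wnt, 2 TGF-beta and 1 IGF or FGF gene passed.

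Markers of the connective tissue progenitors rose in part, with 8 of 23 called higher, none lower and a median of 0.40. Thy1, a surface antigen of fibroblasts, stood at 30.9, 29.4, 25.9, 32.2 and 23.97 CPM in lean and 74.04, 66.3, 67.8, 64.9 and 48.4 CPM in obese libraries, with no overlap (1.17 ± 0.15). Cd55, a complement regulator that marks early progenitors, stood at 11.8, 13.8, 20.1, 9.38 and 10.6 CPM in lean and 41.2, 35.8, 34.99, 34.7 and 25.8 CPM in obese libraries, again apart (1.39 ± 0.24). Pi16, a marker of the same cells, rose from 72.4 ± 20.5 to 169 ± 44.04 CPM and Ly6a, the Sca-1 antigen, from 214 ± 15.4 to 323 ± 26.99 CPM. The summed level of the 23 genes overlapped between lean (7863 to 11559 CPM) and obese fat (8152 to 9354 CPM). Most of it was Gsn, a member that did not pass (log2 -0.20 ± 0.12). Gsn stood at 6514 to 10228 CPM in lean and 6273 to 7308 CPM in obese libraries, so the sum says little of the other members. The count was 5 without lean replicate 4 and 2 without the 4 epididymis-rich libraries.

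Vascular genes gave a mixed result. Of 29 genes of the endothelium and its growth factors 3 rose and 4 fell, with a median of -0.02. Vegfa, the main growth factor of blood vessels, stood at 159, 211, 257, 222 and 284 CPM in lean and 122, 146, 128, 108 and 165 CPM in obese libraries. It fell by 0.76 ± 0.17 on the log2 scale with overlapping groups, and its adjusted p was 0.0135, or 0.0534 with the epididymal covariate. Angpt1, which stabilizes vessels through the receptor Tie2, stood at 19.7, 31.1, 31.9, 16.1 and 17.8 CPM in lean and 5.15, 8.47, 2.44, 3.56 and 6.53 CPM in obese libraries. Every obese library was below every lean one, a log2 value of -2.15 ± 0.38. Cldn5, a junction protein of endothelial cells, did not pass (log2 0.29 ± 0.21). The count of 7 became 3 without obese replicate 2 or lean replicate 2 and 4 without obese replicate 3 or 4 or lean replicate 4 or 5. It was 3 with the covariate and 0 without the 4 epididymis-rich libraries.

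Of 37 genes of mitosis 21 rose and none fell, with a median of 1.34. Their summed level was 118 to 137 CPM in lean and 207 to 307 CPM in obese libraries, without overlap. Ube2c, the ubiquitin-conjugating enzyme of the anaphase-promoting complex, stood at 4.77, 2.84, 5.06, 4.69 and 4.75 CPM in lean and 16.5, 10.4, 11.8, 13.8 and 15.3 CPM in obese libraries, a rise of 1.61 ± 0.21 without overlap. Prc1, a crosslinker of the midzone spindle, rose from 2.55 ± 0.44 to 7.3 ± 1.7 CPM and Birc5, survivin, from 4.64 ± 0.83 to 11.1 ± 1.8 CPM. Among genes of DNA replication 5 of 33 rose and none fell (median 0.30), with E2f1, a transcription factor of S phase entry, at 11.4 ± 2 to 20.7 ± 2.9 CPM and Uhrf1, which maintains DNA methylation, at 4.81 ± 1.3 to 10.5 ± 1.8 CPM. That count was 2 without obese replicate 4 or lean replicate 5 and 3 without obese replicate 1, 3 or 5 or lean replicate 3 or 4. Without the 4 epididymis-rich libraries 5 mitosis genes and no replication gene passed.

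Among 28 cell cycle inhibitors and p53 target genes 5 rose and none fell. Ccng1, a cyclin induced by p53, stood at 69.97, 73.00, 91.9, 90.95 and 48.2 CPM in lean and 130.3, 115, 134, 135 and 121 CPM in obese libraries, with no overlap (0.76 ± 0.16). The count was 3 without obese replicate 3 or lean replicate 4 or 5, and 1 without the 4 epididymis-rich libraries.

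Promoters of mitotic genes often carry a pair of elements, the CHR (TTTGAA), a site of cell cycle repressor and activator complexes, and the CCAAT box (CCAAT), the site of NF-Y. The 250 bases before each RefSeq transcription start (GRCm38.p6) were searched for these letters on both strands, and matches that share bases were counted for each motif. Among the 21 mitosis genes that rose, 18 had a promoter entry. Of these 18, 16 (88.9%) held a CCAAT box and 9 (50%) a CHR, against 39.6% and 13.4% of the 11964 tested genes with an entry. The windows of Top2a, a topoisomerase of dividing cells, Mki67, the Ki-67 antigen gene, and Cdk1, the kinase that starts mitosis, are shown. Each holds both motifs and 2 CHR matches, while windows of the other mitosis genes that rose hold 1 CHR at most. The 3 windows shown read 5′ to 3′ on the gene's strand at chr11:99024190-99024439 (minus strand), chr7:135716380-135716629 (minus strand) and chr10:69352913-69353162 (minus strand). Capitals mark TTTGAA and CCAAT or their complements.
Top2a: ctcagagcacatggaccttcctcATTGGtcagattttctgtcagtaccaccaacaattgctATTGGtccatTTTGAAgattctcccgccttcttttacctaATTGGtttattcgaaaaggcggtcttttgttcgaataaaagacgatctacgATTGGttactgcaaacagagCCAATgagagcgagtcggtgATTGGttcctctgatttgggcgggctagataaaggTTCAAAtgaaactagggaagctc
Mki67: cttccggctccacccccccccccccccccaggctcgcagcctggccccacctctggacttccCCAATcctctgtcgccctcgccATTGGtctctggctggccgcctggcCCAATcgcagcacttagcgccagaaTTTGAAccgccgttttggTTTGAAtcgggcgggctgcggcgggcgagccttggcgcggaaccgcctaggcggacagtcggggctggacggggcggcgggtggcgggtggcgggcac
Cdk1: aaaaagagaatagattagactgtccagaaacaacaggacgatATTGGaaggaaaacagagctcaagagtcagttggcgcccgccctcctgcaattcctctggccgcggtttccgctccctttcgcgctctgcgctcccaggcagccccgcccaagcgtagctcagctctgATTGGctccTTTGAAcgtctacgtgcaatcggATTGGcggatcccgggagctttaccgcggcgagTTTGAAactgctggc
The matches are letters in a window and show no binding. Top2a stood at 6.87, 5.25, 4.7, 6.57 and 5.53 CPM in lean and 20.7, 13.7, 14.6, 17.6 and 17.9 CPM in obese libraries, and Mki67 at 11.7, 10.5, 10.8, 9.72 and 7.45 CPM in lean and 43.02, 23.7, 27.1, 32.6 and 31.2 CPM in obese libraries. Cdk1 stood at 3.97, 2.62, 2.98, 2.95 and 1.99 CPM in lean and 9.16, 6.88, 6.94, 8.27 and 12.2 CPM in obese libraries. For all 3 genes each obese library was above each lean one.

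**Figure D4:**
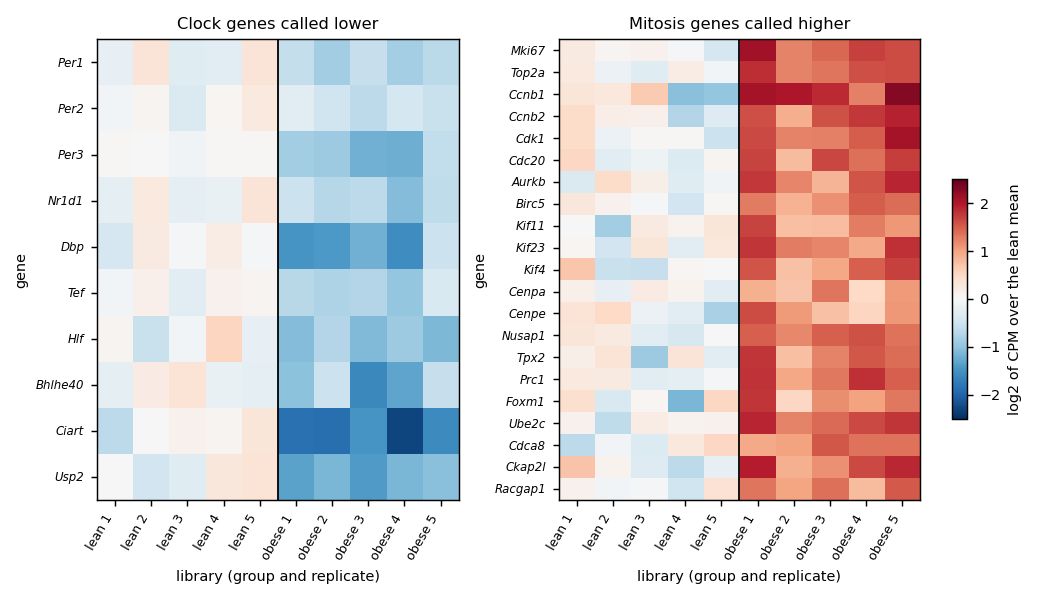
Log2 of each library's CPM over the mean of the 5 lean libraries, for 10 of the 11 clock genes that fell (left) and the 21 mitosis genes that rose (right), with a line between the lean and obese libraries. Blue is below and red above the lean mean, and the obese columns are blue throughout on the left and red throughout on the right.

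Clock genes fell without exception among those called. In the core loop 5 of 16 genes fell, with a median of -0.30, and among clock output genes 6 of 12 fell, with a median of -0.51. Nr1d1, the REV-ERB alpha repressor of Bmal1, stood at 352, 494, 353, 368 and 519.7 CPM in lean and 286, 254, 266, 197 and 268 CPM in obese libraries, and Per1, a period protein that represses its own activators, at 173, 249, 163, 164 and 251 CPM in lean and 133, 109, 134, 111 and 126 CPM in obese libraries. Nr1d1 and Per1 showed no overlap between groups. Among output genes, Usp2, a deubiquitinase, stood at 51.7, 37.1, 41.9, 62.5 and 65.3 CPM in lean and 20.5, 23.5, 19.3, 23.4 and 25.2 CPM in obese libraries. Hlf, a transcription factor of the family that reads the D-box, stood at 43.5, 28.1, 39.4, 60.1 and 35.9 CPM in lean and 19.6, 24.98, 19.2, 22.1 and 19.01 CPM in obese libraries. Both were lower in all obese libraries (-1.21 ± 0.28 and -0.98 ± 0.17). Per2 fell by 0.48 ± 0.13 with overlap (adjusted p = 0.0286, or 0.089 with the covariate). It missed the threshold without obese replicate 2, 3 or 4 or lean replicate 2, 4 or 5 (0.0523 to 0.0727). Without the 4 epididymis-rich libraries 1 core gene and 2 output genes passed, with medians of -0.25 and -0.55. The labels give no time of day for tissue collection, and its part in these values was not tested.

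CLOCK and BMAL1 bind the E-box (CACGTG), and the proteins of Dbp, Tef and Hlf bind the D-box (TTATGTAA). Of the 11 clock genes that fell, 8 had a promoter entry. An E-box lay within 250 bases of a start in 3 of the 8 (37.5%; Ciart, Per1 and Tef), against 9.25% of all tested genes with an entry, and a D-box in 1 (12.5%; Per3), against 0.669%. Windows are given for Ciart, a repressor of CLOCK and BMAL1 (chr3:95882229-95882478 (minus strand)), Per1 (chr11:69098699-69098948 (plus strand)) and Per3 (chr4:151044666-151044915 (minus strand)), which hold 3 E-boxes, 1 E-box and 2 D-boxes. Capitals mark these motifs, which were searched on both strands.
Ciart: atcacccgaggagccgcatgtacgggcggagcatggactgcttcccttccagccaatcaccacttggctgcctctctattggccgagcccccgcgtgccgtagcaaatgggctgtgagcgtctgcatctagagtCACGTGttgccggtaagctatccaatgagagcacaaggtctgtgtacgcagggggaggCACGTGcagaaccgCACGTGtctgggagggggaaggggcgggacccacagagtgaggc
Per1: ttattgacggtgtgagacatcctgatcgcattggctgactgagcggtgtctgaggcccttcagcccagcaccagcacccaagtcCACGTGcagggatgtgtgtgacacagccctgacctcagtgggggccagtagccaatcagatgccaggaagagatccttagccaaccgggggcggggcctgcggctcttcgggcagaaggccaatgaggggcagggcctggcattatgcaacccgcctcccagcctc
Per3: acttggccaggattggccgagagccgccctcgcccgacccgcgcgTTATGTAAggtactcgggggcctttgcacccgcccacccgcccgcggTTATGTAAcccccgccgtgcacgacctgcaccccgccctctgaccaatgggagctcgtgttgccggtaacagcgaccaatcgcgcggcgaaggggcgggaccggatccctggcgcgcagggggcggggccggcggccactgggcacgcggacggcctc
Ciart stood at 14.7, 22.99, 24.8, 24.3 and 28.4 CPM in lean and 6.32, 6.24, 8.25, 4.71 and 7.65 CPM in obese libraries, and Per3 at 98.6, 97.3, 90.8, 99.5 and 98.7 CPM in lean and 53.2, 51.4, 42.3, 41.7 and 63.7 CPM in obese libraries. Neither gene's groups overlapped, and the lean values of Per3 lay close together.

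Genes of the unfolded protein response rose in part. Of 25 members 7 rose and 1 fell, with a median of 0.30. Hspa5, the main chaperone of the endoplasmic reticulum, stood at 493, 469, 461, 383 and 320.0 CPM in lean and 628, 659, 689.9, 932 and 599 CPM in obese libraries, a rise of 0.72 ± 0.15 without overlap. Sdf2l1, a partner of that chaperone, stood at 10.8, 8.66, 12.5, 8.18 and 6.45 CPM in lean and 17.2, 23.1, 25.1, 29.2 and 24.8 CPM in obese libraries, also apart (1.35 ± 0.20). Asns, asparagine synthetase, which responds to amino acid shortage through ATF4, was the gene that fell, from 147 ± 24.7 to 92.1 ± 9.4 CPM. With the epididymal covariate 5 rose and 1 fell, and none passed without the 4 epididymis-rich libraries (median 0.18). Of 74 cytosolic ribosomal protein genes 6 rose, with a median of 0.05. The share called was 8.11%, against 9.71% of all genes tested. Rps27a, which encodes a fusion of ubiquitin and a ribosomal protein, rose from 111 ± 27.6 to 202 ± 31.2 CPM and Rpl31 from 161 ± 14.5 to 240.0 ± 34.6 CPM. These families have many processed pseudogenes that can share reads. Of the 74, 2 passed without obese replicate 3 or 4 or lean replicate 5, 3 without lean replicate 2, 2 with the covariate and none without the 4 epididymis-rich libraries.

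Immediate early genes are induced within minutes of a stimulus, and 4 of 21 rose while none fell. Fosb, a subunit of the AP-1 transcription factor, stood at 2.41, 1.56, 0.904, 0.67 and 1.28 CPM in lean and 5.59, 10.4, 4.34, 4.82 and 2.79 CPM in obese libraries, a rise of 2.03 ± 0.40 without overlap. Ccn1, a matricellular protein, rose from 27.8 ± 6.6 to 71.2 ± 20.2 CPM. The count was 2 without obese replicate 2 or lean replicate 4 or 5, and 1 without the 4 epididymis-rich libraries.

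Among 25 general markers of macrophages 15 rose and none fell, with a median of 0.92, and of 21 markers of lipid-associated macrophages 9 rose and none fell (median 0.73). Ctss, a cathepsin of antigen-presenting cells, stood at 23.3, 11.1, 28.2, 13.6 and 15.5 CPM in lean and 82.6, 100.2, 88.9, 108 and 53.5 CPM in obese libraries, the widest rise of the general list (2.24 ± 0.36). Tyrobp, the adaptor of TREM2 and related receptors, stood at 16.1, 17.7, 29.8, 11.2 and 11.6 CPM in lean and 45.1, 47.7, 48.7, 46.3 and 37.8 CPM in obese libraries, without overlap (1.38 ± 0.30). Fabp5, a fatty acid binding protein, rose from 164 ± 34.3 to 298 ± 73.8 CPM. The summed level of the general markers was 969, 1020.0, 1568, 755 and 757 CPM in lean and 2402, 2011, 2261, 2065 and 1552 CPM in obese libraries. Lean replicate 3 and obese replicate 5 overlapped by a small margin. The sum of the 21 lipid-associated markers overlapped as well, at 21759 to 28484 CPM in lean and 25419.9 to 30413 CPM in obese libraries. The most abundant member of that list was Lpl, which is also a fat cell identity gene and did not pass. The count of general markers was 7 without obese replicate 1, obese replicate 3 or lean replicate 5, 8 without obese replicate 2 and 9 without lean replicate 4. With the covariate 18 rose, and without the 4 epididymis-rich libraries none passed in either list, with medians of 1.11 and 0.65.

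**Figure D5:**
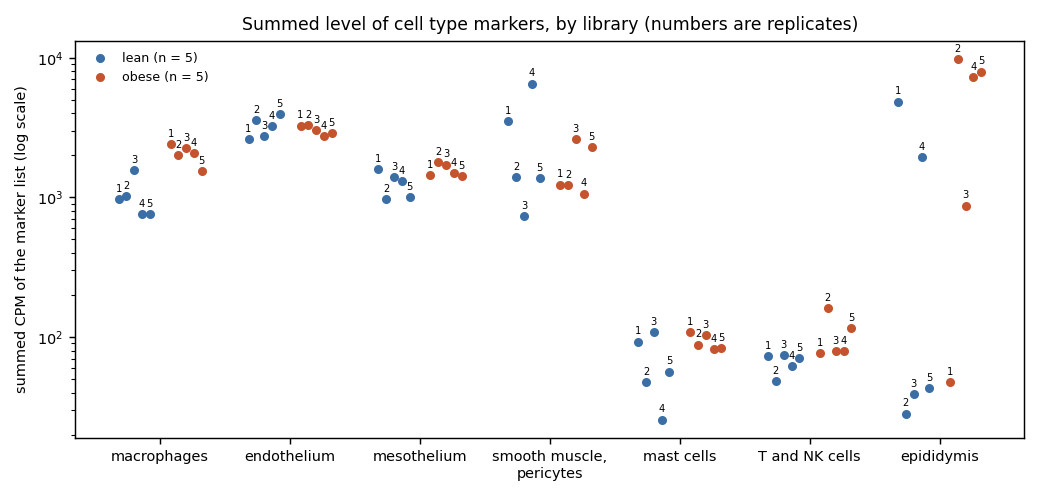
Summed CPM (log scale) of the marker lists of 7 cell types or tissues in each lean (blue) and obese (orange) library, with the replicate number above each point. Macrophage sums are 755 to 1568 CPM in lean and 1552 to 2402 CPM in obese fat, while epididymal sums run from 28.3 to 9838 CPM and overlap between groups.

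Of 37 genes of chemokines and their receptors 13 rose and none fell, with a median of 0.96. The summed level of the 38 genes listed overlapped between lean (742 to 876 CPM) and obese libraries (749 to 1223 CPM). Ccl7, a ligand of CCR2, stood at 4.41, 2.13, 4.52, 1.81 and 1.92 CPM in lean and 16.6, 21.8, 13.5, 15.9 and 10.97 CPM in obese libraries, and it rose without overlap (2.40 ± 0.35). Its gene lies 8259 bases from Ccl2, which rose as well. The receptor gene Ccr2 stood at 18.8, 13.9, 27.7, 13.5 and 11.7 CPM in lean and 79.3, 60.8, 53.7, 55.6 and 28.5 CPM in obese libraries, higher in every obese library (1.69 ± 0.32). Ccl6 rose from 48.8 ± 30.6 to 158 ± 38.9 CPM and Ccl8 from 3.27 ± 2.2 to 12.6 ± 5 CPM. The macrophage marker sum was also higher in most obese libraries, and its part in the rise of these genes was not tested. Of the 37, 1 passed without the 4 epididymis-rich libraries.

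Of 45 lysosomal genes 15 rose and none fell, with a median of 0.33 and 40 of the 45 values above 0. Gusb, beta-glucuronidase, stood at 94.9, 94.3, 109, 84.1 and 90.8 CPM in lean and 145, 144, 156, 152 and 149 CPM in obese libraries, without overlap (0.66 ± 0.10). Ctsl, cathepsin L, rose from 336 ± 46.6 to 565 ± 65.1 CPM and Ctsd, cathepsin D, from 1417 ± 283 to 2305 ± 408 CPM. The count was 9 without obese replicate 2, obese replicate 5 or lean replicate 5, 8 without obese replicate 3 or lean replicate 4, and 0 without the 4 epididymis-rich libraries (median 0.30).

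Acute-phase genes and calgranulins, the S100 proteins of inflamed tissue, rose in 11 of 23 cases and fell in 1, with a median of 0.88. Lbp, which binds bacterial lipopolysaccharide, stood at 226, 184, 159, 139.9 and 133 CPM in lean and 427, 452, 446, 439 and 499 CPM in obese libraries. All obese libraries were above all lean ones, a rise of 1.43 ± 0.15 (adjusted p = 7.90e-05). S100a4, a calcium-binding protein of fibroblasts and macrophages, stood at 17.2, 9.36, 16.7, 9.99 and 8.01 CPM in lean and 77.5, 68.4, 96.1, 85.4 and 54.6 CPM in obese libraries, a rise of 2.63 ± 0.27. S100a8, a calgranulin of neutrophils and monocytes, stood at 0.357, 0.284, 0.452, 1.07 and 0 CPM in lean and 3.19, 3.92, 4.77, 4.35 and 5.75 CPM in obese libraries, also without overlap. The list had 4 calls, all higher, without the 4 epididymis-rich libraries. Among 23 complement genes 7 rose and 1 fell. Cfb, factor B of the alternative pathway, stood at 221, 213, 272, 191 and 209.8 CPM in lean and 407, 464, 488, 452 and 424 CPM in obese libraries, a rise of 1.01 ± 0.13 with no overlap, and Cd59a, which blocks the membrane attack complex, rose from 117 ± 28.3 to 208 ± 32.4 CPM. Cfd, factor D or adipsin, which is made by fat cells, stood at 7195, 13965, 9057, 8437 and 11833 CPM in lean and 3323, 3151, 4849, 2939 and 4169 CPM in obese libraries and was the gene that fell, without overlap (-1.45 ± 0.26). The summed level of the 24 complement genes listed was lower in every obese library, at 8916 to 10954 CPM against 11971 to 19445 CPM in lean libraries. Cfd made up most of this sum in lean libraries, so the lower sum does not describe the other genes, of which 7 rose. No complement gene passed without the 4 epididymis-rich libraries.

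The share of genes called differed between the other immune lists. It was 5.56% for interferon response genes and 11.8% for interleukins, TNF family genes and receptors, against 9.71% of all genes tested. For antigen presentation it was 20%, and for alternative activation and eosinophil genes 25%. Of 36 interferon response genes 2 rose, 1 or none in each fit without 1 library, and Oas2, an antiviral enzyme, passed at 12.9 ± 2.3 to 26.9 ± 6.2 CPM but not without obese replicate 1, obese replicate 3 or lean replicate 4 (adjusted p = 0.0585, 0.0606 and 0.0638). Of 20 genes of antigen presentation 4 rose, all of the class II pathway. H2-Aa, a class II chain, rose from 399 ± 64.9 to 658 ± 94.5 CPM. That count was 1 without obese replicate 2, obese replicate 3 or lean replicate 4, 2 without obese replicate 1 or lean replicate 2 or 5, and 7 without lean replicate 3. Of 34 interleukins, TNF family genes and receptors 3 rose and 1 fell, with Il10ra, a receptor of interleukin 10, at 12.1 ± 2.4 to 23.2 ± 3.7 CPM the 1 that passed in each fit without 1 library. That list had 1 call without obese replicate 1 or 2 or lean replicate 2, and 2 without obese replicate 4 or lean replicate 1 or 5. Tnf did not pass (adjusted p = 0.899), and Il6 was below the filter on low counts. Retnla, a product of alternatively activated macrophages, stood at 677, 667, 1162, 328 and 347 CPM in lean and 1741, 1491, 1820.2, 1459 and 1164 CPM in obese libraries, higher in every obese library (1.27 ± 0.31). Ear2, of a family of closely related ribonucleases of eosinophils and macrophages, rose from 11.5 ± 5.1 to 39.8 ± 8 CPM. Of 16 genes of alternative activation and eosinophils 3 rose and 1 fell, and 8 rose and 1 fell without lean replicate 3, the lean library with the highest macrophage sum. With the covariate that count was 7 higher and 1 lower. Arg1 was below the filter. Without the 4 epididymis-rich libraries no gene passed in the interferon, antigen presentation, interleukin or alternative activation list.

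None of 12 B and plasma cell, 9 mast cell, 6 red cell or 7 testis germ cell genes passed, and 1 of 19 T and NK cell genes rose but none did without obese replicate 3 or lean replicate 4 or 5. Of 9 neutrophil genes 2 rose and 1 fell, and 1 passed without obese replicate 2 or 3. Of 11 skeletal muscle genes 2 rose, Pvalb, parvalbumin, from 0.313 ± 0.28 to 2.89 ± 1.7 CPM and Ryr1, the calcium release channel of muscle, from 2.26 ± 1.3 to 5.84 ± 1.5 CPM. The median of the 11 was 0.10, and Acta1, the most abundant member, did not pass (log2 -0.18 ± 0.56). The sum of the 12 skeletal muscle genes listed overlapped, at 54.9 to 395 CPM in lean and 94.1 to 249 CPM in obese libraries. Ryr1 missed the threshold in 8 of the 10 fits without 1 library (all but obese replicate 5 and lean replicate 3, adjusted p of 0.0506 to 0.0748), and Pvalb without obese replicate 3 (0.058). Msln, the mesothelin of the lining of the body cavity, was the 1 of 18 mesothelial genes to rise, from 50.3 ± 21.9 to 107 ± 25.3 CPM, and it missed the threshold without obese replicate 1, 2 or 3 or lean replicate 2, 4 or 5 (adjusted p of 0.0513 to 0.0829). Of 16 smooth muscle and pericyte genes 1 rose, Higd1b, a marker of pericytes, from 7.34 ± 1.5 to 12.1 ± 1.2 CPM. It passed in 1 of the 10 fits without 1 library, that without lean replicate 3, with adjusted p of 0.0577 to 0.101 in the other 9. The sum of the 17 smooth muscle and pericyte genes listed ran from 736 to 6521 CPM in lean and from 1065 to 2614 CPM in obese libraries. None of the T and NK cell, neutrophil, skeletal muscle, mesothelial, smooth muscle or nerve genes passed without the 4 epididymis-rich libraries. Nefm, a neurofilament chain, was at 0, 0, 0.181, 0.134 and 0 CPM in lean and 0.833, 0.609, 1.03, 1.36 and 0.494 CPM in obese libraries, close to the limit of detection in lean fat.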

How the data were processed

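The authors deposited 1 table of expected counts per Entrez gene, estimated from reads and not normalized, with 34.8% of values not whole. The build is mm10 per the labels. For aligner, counter, annotation and strand rule the sources used here give nothing. Counts were rounded. Of 35794 IDs, 32919 took a symbol from RefSeq and 24 from GENCODE. Libraries under 1000000 counts were left out, which removed 1 weight loss library of 230 counts. Genes were filtered with filterByExpr and scaled by TMM, and 1 model of the lean, obese and 4 weight loss libraries was fitted with edgeR 4.0.16 (R 4.3.3; quasi-likelihood test, two-sided, Benjamini-Hochberg adjustment over all genes). Standard errors were derived from F, as the absolute log2 value divided by its square root. The test was checked on simulated data.

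The 54 gene lists were chosen with earlier results of these data known, as was the comparison. Genes named were the 12 highest and 12 lowest called with a mean of at least 5 CPM, up to 5 called members of each list by p, the member of each list with the highest CPM, 18 set genes and the markers of other cell types. Not all are printed, and a few are not reported here. Tsga13, Cldn24 and Cdk1 were added after their values were seen. Alternatives were other scalings and filters, DESeq2 1.42.0, limma-voom 3.58.1, the 10 libraries alone, a replicate block, an epididymal covariate, and libraries left out. Promoter sequences and gene positions are from RefSeq GRCm38.p6, and 11964 of 15208 genes had a promoter entry. Plots were made with Python 3.11.15 and matplotlib 3.10.9.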

Additional observations from a re-analysis of the deposited data

Results flagged for a closer look

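Within each group of 5, a library was singled out where its gap to the nearest other library, on the log2 scale, exceeded 0.71 of the whole range of the group (Dixon's 95% limit). This held in 15 of 298 groups, and chance flags about 1 in 20. Obese replicate 4 stood far above the others for Epp13, at 490 CPM against 2.22 CPM or less, and for Spink2, at 110 CPM against 4.93 CPM or less. Lean replicate 3 was high for Ccl6 (103 CPM, others 39.5 CPM or less) and H2-Aa (511 CPM, others 383 CPM or less) and low for Per3 (90.8 CPM, others at least 97.3 CPM). Obese replicate 5 was low for Ccn1 (37.5 CPM, others at least 71.4 CPM), Ear2 (26.3 CPM, others at least 39.8 CPM) and Mfap5 (112 CPM, others at least 179 CPM), and high for Tst (71.4 CPM, others 34 CPM or less). Lean replicate 4 had no read of Duoxa1, listed at 0 CPM against at least 1.13 CPM, and was high for Srpx2 (23.7 CPM, others 19.5 CPM or less). Lean replicate 5 was low for Pi16 (38 CPM, others at least 72.9 CPM) and lean replicate 2 for Ube2c (2.84 CPM, others at least 4.69 CPM). Obese replicate 1 was low for Fdft1 (88.7 CPM, others at least 116 CPM), and obese replicate 3 high for Serpinh1 (904 CPM, others 746 CPM or less).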

How the results depend on the processing

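The 1477 calls (891 higher, 586 lower) became 2260 with DESeq2's Wald test (1010 lower), 463 at an adjusted p of 0.01 (301 and 162), and 125 without the 4 epididymis-rich libraries (93 and 32), where fewer libraries were fitted. With the epididymal covariate 369 genes were lower. Leaving out 1 library gave 849 to 1673 calls, 503 to 993 higher and 304 to 680 lower. Other scalings, filters, limma-voom with and without quality weights and a fit of the 10 libraries alone gave 1192 to 1906. The split of higher against lower calls was 873 to 634 with DESeq2 size factors, 868 to 720 with the CPM filter and 826 to 690 without Lars2 and an Entrez ID with no symbol.

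The replicate number as a replicate block gave 1618 calls, but same-numbered obese and lean libraries did not deviate together (correlations of -0.542, -0.018, -0.062, 0.108 and -0.001), and none of the 5 obese libraries correlated best with its own number. Under the block 8 genes of oxidative phosphorylation and 8 of antigen presentation passed.

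Of 149 of the genes printed, those that reversed were Lcn5 (-0.76), Lpl (0.01) and Tnf (-0.43) without the 4 libraries. Tnf also reversed with the covariate (-0.08) and when obese replicate 2 or 5 or lean replicate 3 was left out (range over all 10 such fits -0.02 to 0.31). The cause was not tested. Cntd1, Epp13, Lcn5, Mmp12 and Spink2 missed the threshold with limma-voom, Pvalb with its quality weights, and Epp13, Higd1b and Scd1 with no filter. DESeq2 gave no adjusted p for Epp13, Lcn5 and Spink2. It passed 8 genes of oxidative phosphorylation, 9 of the citric acid cycle, 8 cell cycle inhibitors and p53 targets, 7 of TGF-beta and BMP signalling, 7 of antigen presentation and 5 of neutrophils. limma-voom with quality weights passed 8 genes of the citric acid cycle, 8 cell cycle inhibitors and p53 targets and 7 of alternative activation. Without Lars2 and that Entrez ID, left out after the data were seen, 1516 genes passed and 3 of DNA replication. Depth limits the rarest transcripts: a few counts decide genes under 1 CPM.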

Other observations

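Genes in none of the lists also differed between obese and lean fat. The 10 described here have the smallest p among such genes that the report leaves out, and they were chosen after their values were seen. Each of the 10 separated the groups without overlap and passed in all 10 fits that left out 1 library. Paqr9, a membrane protein of the progestin and adipoQ receptor family, stood at 14.2, 17.4, 21.97, 19.7 and 12.4 CPM in lean and 79.3, 66.9, 85.1, 82.99 and 91.9 CPM in obese libraries, a rise of 2.24 ± 0.16. Pcolce2, which also rose, is its next tested gene on chromosome 9. Tuba1a, an alpha-tubulin, stood at 281, 242, 257, 195 and 236 CPM in lean and 925, 680.0, 1144, 1048 and 1591 CPM in obese libraries, a rise of 2.15 ± 0.19, and tubulin genes are alike enough to share reads. Ncan, a proteoglycan best known from the brain, rose from 3.06 ± 0.78 to 19.9 ± 6.2 CPM. The secreted protein gene Wfdc21 stood at 34.2, 16.7, 19.5, 27.1 and 11.6 CPM in lean and 131, 110.2, 122, 118 and 97.6 CPM in obese libraries. Tspan17, a tetraspanin, rose from 100.4 ± 5 to 211 ± 29.1 CPM and Dap, a regulator of autophagy, from 189 ± 12.9 to 336 ± 20.4 CPM.

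Among the 10 were 2 that fell. Podn, a secreted proteoglycan with leucine-rich repeats, stood at 238, 320.3, 269, 221 and 345 CPM in lean and 113, 101, 112, 91.9 and 124 CPM in obese libraries, a log2 value of -1.36 ± 0.13. The long noncoding RNA 2010016I18Rik fell from 104 ± 20.5 to 30.3 ± 4 CPM. The other 2 were histone genes, whose transcripts mostly end without a poly(A) tail: H1f4 rose from 2.41 ± 0.49 to 9.52 ± 1.2 CPM and H3c15 from 6.23 ± 1.7 to 23.3 ± 4.2 CPM. Copies of the H3 gene are nearly identical in sequence, so the assignment of reads to H3c15 is uncertain. By kind of gene, 61 of 644 long noncoding RNAs (9.47%) and 1406 of 14389 protein-coding genes (9.77%) passed.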
